A study of Homo sapiens with 6 samples.

Results

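The genes described here are 34 enzymes, transporters and regulators that carry glucose into the cell, break it down to pyruvate and lactate, admit pyruvate to the mitochondrion's pyruvate dehydrogenase, or divert sugar phosphates through the pentose phosphate pathway. They were chosen by name, and all array probes annotated to them were taken. Of the 34 genes, 32 had a probe, and all 32 passed the filter on dim probes, among 14145 genes tested. SLC16A1 and SLC16A3, the lactate transporters, have no probe named for them in the annotation used here, so their expression was not analysed here. The 32 genes had 55 of the 48803 probes, of which 49 passed the filter and 6 did not.

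SKOV3ip1, an ovarian cancer cell line derived from SKOV3, was the source of all RNA, measured on 6 single-colour Illumina bead arrays. Cells of 3 arrays had received an siRNA against STAT3 (siSTAT3) and cells of 3 arrays a control siRNA (siCon). No dose, siRNA sequence or time after transfection is given in the sources used here, and all arrays come from 1 cell line. Nothing in the labels says that the samples of a group were separate cultures, so the p-values speak only of how these samples varied, and that variation may be technical. In such bulk RNA, fewer cells of a kind and less RNA per cell cannot be told apart.

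Glycolysis turns glucose into pyruvate in the cytosol. In most tumour cells much of that pyruvate is reduced to lactate by lactate dehydrogenase even when oxygen is present. The pentose phosphate pathway branches off after the hexokinase step and supplies NADPH and ribose. Several steps are served by isoenzymes, near relatives encoded by separate genes, of which some are made in nearly every tissue and others mainly in brain, muscle or testis, or under low oxygen. Many genes of glycolysis are textbook targets of hypoxia-inducible factors, and STAT3 is a transcription factor switched on by phosphorylation downstream of many cytokine receptors.

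STAT3 itself read 589, 549 and 667 on siSTAT3 arrays 1 to 3, against 2778, 2241 and 2544 on siCon arrays 1 to 3, in normalised intensity. That is a log2 change (siSTAT3 over siCon) of -2.07 ± 0.12 (SE, limma adjusted p = 2.44e-07), and the groups did not overlap on any of its 3 probes. Median unnormalised intensity over all probes lay between 93 and 97.1 on the 6 arrays, and precision is limited by having 3 arrays a group. On the first principal component of the tested genes siCon array 3 scored -23.8, against -1.18 to 9.77 on the other arrays, so log2 changes that moved by over 1.5 times or turned sign without it are given both ways. The epithelial and ovarian markers KRT7, KRT8, KRT18, KRT19, EPCAM, ERBB2 and PAX8 had mean intensities between 442 and 5987 in siSTAT3, and between 443 and 5660 in siCon. Of these KRT8 fell (log2 change -0.52, limma adjusted p = 0.0458). That call is marginal, and the markers were not examined without siCon array 3 or under other processing. KRT8 read 1184 on siCon array 3, against 1495 and 1507 on siCon arrays 1 and 2. MUC16 and WT1, also in that list, lay near the median of all probes (94.8), as did the leukocyte, endothelial and fibroblast markers that passed the filter, between 89.1 and 145 in siSTAT3 and between 92.1 and 138 in siCon.

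Among the 32 measured genes the aldolase ALDOC rose, none fell, and 31 did not pass the threshold, an adjusted p of 0.05 over all genes tested. Over all tested genes 1.46% were called, 0.396% higher and 1.07% lower. With an unadjusted p under 0.05, 4 genes were higher (ALDOC, ENO2, PFKFB4 and HK1) and 1 was lower (TALDO1), where 6.23% of all genes were higher and 5.87% lower by that rule. All siSTAT3 arrays lay above all siCon arrays for 6 of the 32 and below them for 2. Over all genes the groups did not overlap for 8.63% in the higher direction and 8.56% in the lower. The median log2 change of the 32 was 0.06, beside 0.01 over all genes tested, and 21 of 32 lay above 0, beside 51.7% of all genes. With each array left out in turn, between 18 and 23 lay above 0. The log2 median of the 32, each less its own mean over arrays, read 0.01, 0.01 and 0.08 on siSTAT3 arrays 1 to 3. On siCon arrays 1 to 3 it read -0.06, -0.04 and 0.03, so the groups overlapped. For 28 of the 31 genes that did not pass, the 95% interval of the log2 change stayed within 0.5 of no change in either direction. They include dim genes such as PDK1, near the median of all probes, where a change would hardly show. The like share over all genes was not computed, so this count does not set these genes apart.

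**Figure D1:**
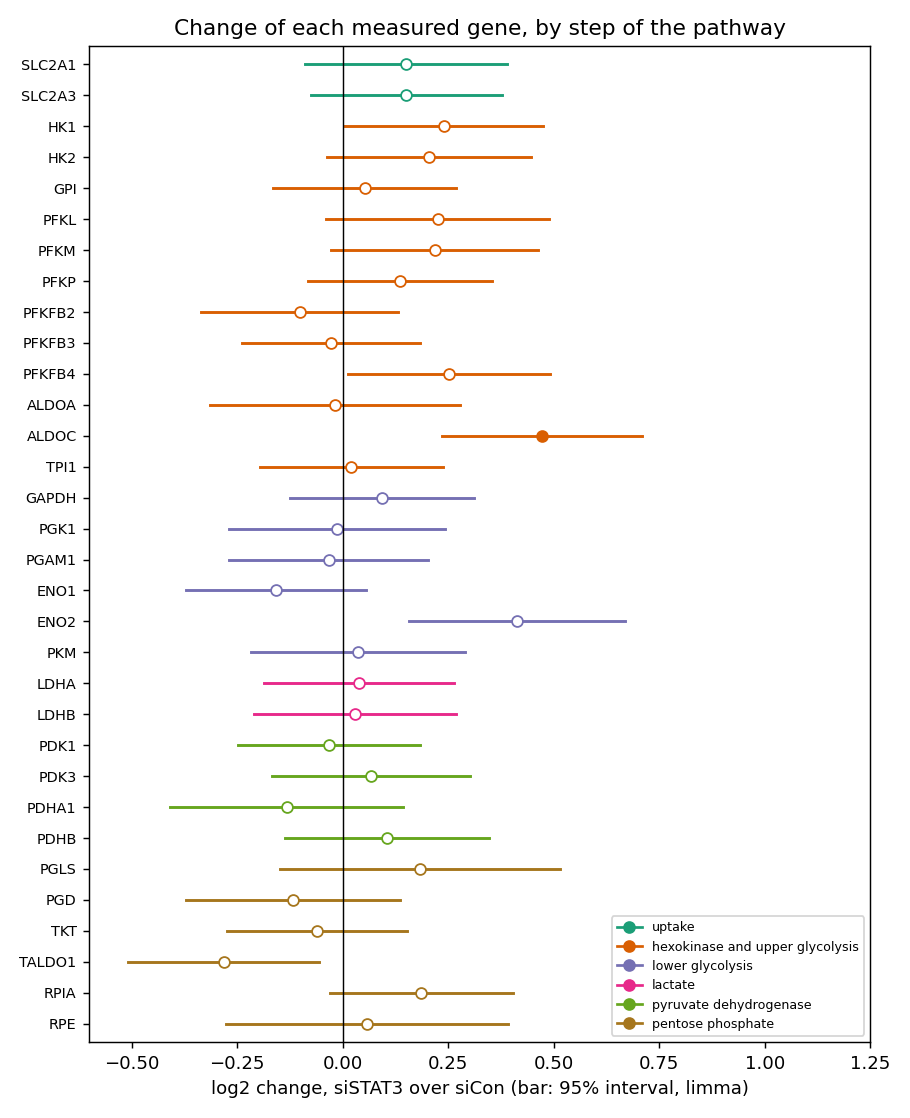
Log2 change (siSTAT3 over siCon, n = 3 arrays each) of each of the 32 measured genes, coloured by step, with its 95% interval from limma. A filled point has an adjusted p under 0.05, which holds for ALDOC alone; the intervals of ENO2, PFKFB4, HK1 and TALDO1 leave out 0 without passing the adjusted threshold.

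Glucose enters through facilitative transporters. SLC2A1, the widely expressed basal transporter GLUT1, averaged 2151 ± 43.8 in siSTAT3 and 1948 ± 237 in siCon (SD, n = 3 each), a log2 change of 0.15 ± 0.11 (SE) that did not pass, or 0.05 without siCon array 3. SLC2A3, the high-affinity transporter typical of neurons, read 183, 155 and 162 in siSTAT3, against 152, 154 and 142 in siCon. Its siSTAT3 arrays lay above its siCon arrays, by a margin far smaller than the spread within siSTAT3, and its log2 change of 0.15 ± 0.11 did not pass either. The pair showed no difference at this precision, with a difference between their log2 changes of 0.00 ± 0.11 (SE). SLC2A3 lay much nearer the median of all probes (94.8) than SLC2A1 did. No background was subtracted, so the change of SLC2A3 may be the more compressed.

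Upper glycolysis, from hexokinase to the trioses, held 12 of the tested genes, of which 9 had a log2 change above 0, with a median of 0.17, and 1, ALDOC, was called. Hexokinases trap glucose as its phosphate. HK1, the widely expressed form, read 5297, 5269 and 5875 in siSTAT3, against 4248, 4551 and 5149 in siCon on its brightest probe. The groups did not overlap, and the log2 change was 0.24 ± 0.11 (limma adjusted p = 0.40). HK2, the form of muscle and fat that many tumours induce, averaged 440 ± 26.3 in siSTAT3 and 384 ± 46.8 in siCon, a log2 change of 0.20 ± 0.11 (adjusted p = 0.524). Its groups overlapped, with siSTAT3 array 2 at 413 and siCon array 3 at 436. Without siCon array 3 the log2 changes were 0.32 for HK1 and 0.30 for HK2, still with adjusted p-values of 0.133 and 0.158 by limma.

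GPI, which isomerises glucose phosphate to fructose phosphate, gave 0.05 ± 0.10. Phosphofructokinase, the committing step, is built from liver, muscle and platelet type subunits. PFKL, the liver type, read 448, 472 and 588 in siSTAT3, against 389, 474 and 422 in siCon. PFKM, the muscle type, read 377, 368 and 316 in siSTAT3, against 280, 340 and 293 in siCon. The groups overlapped in both genes, through siCon array 2 at 474 in PFKL and 340 in PFKM. PFKP, the platelet type, averaged 3529 ± 236 in siSTAT3 and 3207 ± 70.7 in siCon, and its groups did not overlap. Their log2 changes were 0.23 ± 0.12 for PFKL, 0.22 ± 0.11 for PFKM and 0.14 ± 0.10 for PFKP, with limma adjusted p-values of 0.517, 0.493 and 0.688. The change differed between the subunit genes by -0.01 ± 0.20 for PFKM minus PFKL and -0.09 ± 0.11 for PFKP minus PFKL (SE), neither beyond the spread between arrays.

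The bifunctional PFKFB enzymes make and remove the sugar bisphosphate that activates phosphofructokinase. PFKFB4, a form of testis that low oxygen induces, read 320, 362 and 391.6 in siSTAT3, against 320, 304 and 276 in siCon, where siSTAT3 array 1 equalled siCon array 1. Its log2 change was 0.25 ± 0.11 (limma adjusted p = 0.384). PFKFB3, the form with the strongest bias toward making the activator, read 2099, 2187 and 2237 in siSTAT3, against 2219, 2203 and 2227 in siCon. Its brightest probe gave -0.03 ± 0.10, while its other probe gave 0.22 with groups that did not overlap (426 ± 37.3 in siSTAT3 and 365 ± 24.8 in siCon). PFKFB2, the heart form, lay at 181 ± 15.5 in siSTAT3 and 194 ± 14.7 in siCon, a log2 change of -0.10 ± 0.11, or -0.05 without siCon array 3, and its dimmer probes gave 0.09 and 0.27.

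Aldolase splits fructose bisphosphate. ALDOC, the isoform otherwise typical of brain, read 547, 570.0 and 602 on siSTAT3 arrays 1 to 3, against 434, 446 and 364 on siCon arrays 1 to 3. Every siSTAT3 array lay above every siCon array. The mean of 573 ± 27.7 in siSTAT3, against 414 ± 44.4 in siCon (SD, n = 3 each), is a 1.39-fold rise, with a log2 change of 0.47 ± 0.11 (SE, 95% interval 0.24 to 0.71, limma adjusted p = 0.0487). The call is marginal: 9 of 15 alternative analyses lost it, with adjusted p-values between 0.0224 and 0.262 over all 15. The log2 change itself lay between 0.38 and 0.53 in all of them, and was 0.38 without siCon array 3 (limma adjusted p = 0.0558). Some of the 15 could not move it. These were a lifted or stricter filter, the intensity trend, the replicate block, and averaging of probes, since ALDOC has 1.

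ALDOA, the aldolase of muscle and most other tissues, read 8155, 7848 and 9428 in siSTAT3, against 7100.2, 8244 and 10687 in siCon. Its siCon arrays spanned the whole range of its siSTAT3 arrays, and the log2 change was -0.02 ± 0.14. Without siCon array 3 its sign turned, to 0.14 (adjusted p = 0.627), and 5 of 15 alternatives turned it. A further bright ALDOA probe gave 0.16, averaging 6847 ± 492 in siSTAT3 and 6143 ± 504 in siCon, also with overlapping groups. TPI1, which interconverts the trioses, gave 0.02 ± 0.10 at 10256 ± 459 in siSTAT3 and 10109.8 ± 469.8 in siCon, or 0.05 without siCon array 3.

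**Figure D2:**
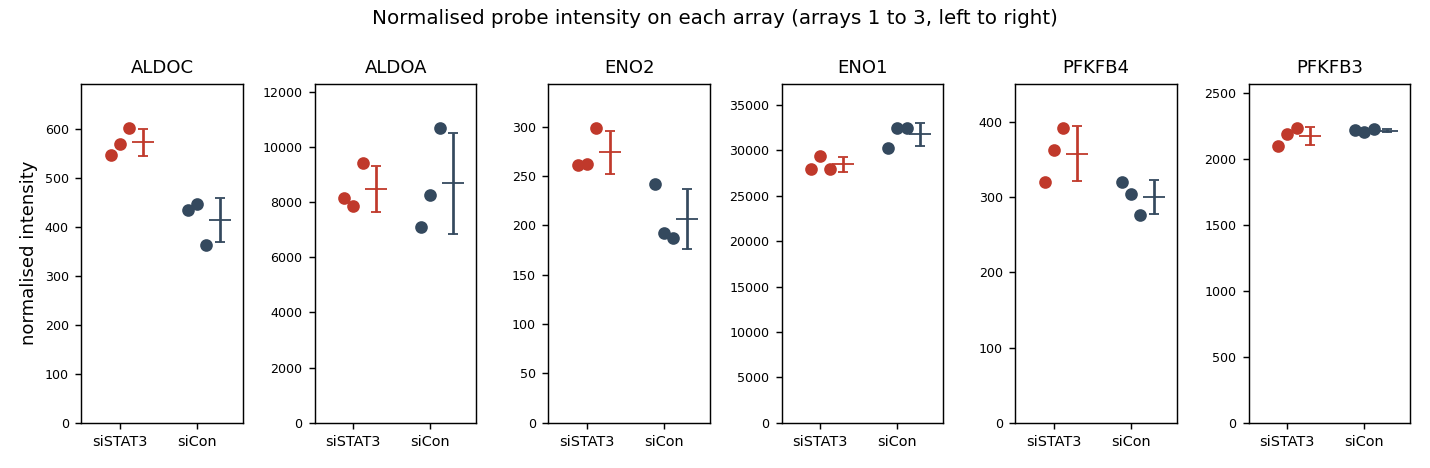
Normalised intensity on each array (points, arrays 1 to 3 from left to right) with mean and SD, for 3 isoenzyme pairs, siSTAT3 left of siCon; each panel has its own scale from 0. ALDOC and ENO2 lie higher on every siSTAT3 array than on any siCon array, ENO1 lies lower on every one, and PFKFB4, ALDOA and PFKFB3 overlap or touch.

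Of the 6 tested genes of lower glycolysis, from GAPDH to pyruvate kinase, none was called, 3 lay above 0 and 3 below, and the median was 0.01. ENO2, the enolase of neurons, read 261, 262 and 299 in siSTAT3, against 242, 192 and 187 in siCon. The groups did not overlap, and the means were 274 ± 21.6 in siSTAT3 and 207 ± 30.2 in siCon. Its log2 change of 0.41 ± 0.12 (95% interval 0.16 to 0.67) had an unadjusted p of 0.00365 and did not pass (limma adjusted p = 0.124). It was not called under any of the 15 alternatives, where its adjusted p lay between 0.0555 and 0.463. ENO1, the enolase of most tissues, went the other way without passing, at 27980, 29384 and 27980 in siSTAT3, against 30288, 32456 and 32456 in siCon. The groups did not overlap, and the log2 change was -0.16 ± 0.10 (adjusted p = 0.607). ENO1 was the 27th brightest of all probes, where quantile normalisation gives arrays that share a rank the same value, hence the ties.

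The brightest probes of the other genes of lower glycolysis gave log2 changes between -0.03 and 0.09. GAPDH, which makes the first NADH of the pathway, averaged 12467 ± 762 in siSTAT3 and 11672 ± 409 in siCon (0.09 ± 0.10), and its other probes gave 0.09 and 0.14. PGK1, which yields the first ATP, gave -0.01 ± 0.12 on its brightest probe and 0.27 on its other probe. The groups overlapped on that other probe, at 2746 ± 143 in siSTAT3 and 2339 ± 598 in siCon, where siCon array 1 read lowest at 1666. On the brightest PGK1 probe siCon array 3 stood highest at 6063, and without that array the log2 change was 0.11 (adjusted p = 0.691). PGAM1, the phosphoglycerate mutase of most tissues, gave -0.03 ± 0.11 (-0.01 without siCon array 3), and its other probe gave -0.17, at 753 ± 64.8 in siSTAT3 and 846 ± 29.9 in siCon. PKM, the pyruvate kinase that makes pyruvate, gave 0.04 ± 0.12, or 0.15 without siCon array 3 (adjusted p = 0.565), and its other probes 0.11 and 0.20. Its probes are listed against different PKM transcripts, but probe sequences were not used here, so the changes of the M1 and M2 splice forms were not told apart. GAPDH, PGK1, PGAM1 and LDHA have many near-identical pseudogene copies, and a bead probe may also bind their RNA.

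LDHA, the lactate dehydrogenase subunit that favours making lactate, read 36370, 38463 and 37345 in siSTAT3, against 34959, 34237 and 40229 in siCon. It was the 7th brightest probe of all. Its log2 change was 0.04 ± 0.11 (95% interval -0.19 to 0.26). LDHB, the heart type subunit, averaged 5093 ± 288 in siSTAT3 and 5007 ± 567 in siCon, a log2 change of 0.03 ± 0.11 (95% interval -0.21 to 0.27). For both subunits siCon array 3 read highest of the 6 arrays, and without it each gave 0.11, with adjusted p-values of 0.706 for LDHA and 0.728 for LDHB.

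Pyruvate dehydrogenase commits pyruvate to the mitochondrion, and PDK kinases switch it off. PDK1, the kinase that low oxygen induces, lay at 99.3 ± 5.50 in siSTAT3 and 102 ± 1.95 in siCon. That is near the median of all probes, so a change would hardly show. PDK3 averaged 1287 ± 81.1 in siSTAT3 and 1231 ± 120 in siCon (0.07 ± 0.11, or 0.12 without siCon array 3). The alpha subunit PDHA1 read 1178, 1199 and 1293 in siSTAT3, against 1084, 1562 and 1421 in siCon, a log2 change of -0.13 ± 0.13 with groups that overlapped widely. The beta subunit PDHB gave 0.11 ± 0.11.

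None of the 6 tested pentose phosphate genes was called by limma, and 3 lay above 0 and 3 below. TALDO1, the transaldolase of the non-oxidative branch, read 7020.1, 6777 and 7147 in siSTAT3, against 8464, 9315 and 7746 in siCon. Every siSTAT3 array lay below every siCon array. Its log2 change was -0.28 ± 0.11 (95% interval -0.51 to -0.05), with an unadjusted p of 0.0183 and a limma adjusted p of 0.281. Without siCon array 3, the lowest of its group, the change was -0.35 (adjusted p = 0.0884). A much dimmer TALDO1 probe at 100.3 ± 3.77 in siSTAT3 and 88.8 ± 10.5 in siCon gave 0.18, and averaging the probes reduced the change to -0.05.

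RPIA, the isomerase that makes ribose phosphate, read 910, 923 and 1009 in siSTAT3, against 823, 862 and 810 in siCon. Its groups did not overlap, at a log2 change of 0.19 ± 0.10 (adjusted p = 0.511). TKT, the transketolase, averaged 5584 ± 189 in siSTAT3 and 5824 ± 154 in siCon (-0.06 ± 0.10). PGD, the decarboxylating dehydrogenase of the oxidative branch, gave -0.12 ± 0.12, and -0.0051 without siCon array 3, its highest array (adjusted p = 0.990). PGLS, the lactonase before it, gave 0.18 ± 0.16. PGLS spanned 921 to 1249 within siSTAT3 and 749 to 1198 within siCon, and its change was 0.01 without siCon array 3. RPE, the epimerase, spanned 978 to 1058 within siSTAT3 and a wider 763 to 1328 within siCon, and gave 0.06 ± 0.16, or 0.27 without siCon array 3 (adjusted p = 0.240).

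The isoenzymes of a step were then set against each other. Intensities of different probes do not measure relative abundance, so only changes were compared, as the per-array difference in log2 intensity between both genes of a pair. Of 11 pairs fixed from textbook roles, 10 were measured. The form restricted to some tissues or induced is named first and the widely expressed form second. Second forms may also be induced by low oxygen, as PDK1 is, so the order does not sort the pairs by response to low oxygen. The groups did not overlap for 3 pairs, ENO2 minus ENO1 at 0.57 ± 0.17 (SE), ALDOC minus ALDOA at 0.49 ± 0.26 and PFKFB4 minus PFKFB3 at 0.28 ± 0.09. Each had a two-sided exact permutation p of 0.1, the smallest that 3 arrays against 3 allow, so no pair could pass 0.05. Among single genes the groups did not overlap for 8.63% of all tested in the higher direction and 8.56% in the lower. The like share over other pairs of genes was not computed.

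For the enolases the difference was 0.47 without siCon array 3. For the aldolases it was 0.24 without siCon array 3, on which ALDOA read highest and ALDOC lowest. For the PFKFB pair it was 0.16 when a gene's probes were averaged, since the other PFKFB3 probe read higher in siSTAT3. The remaining 7 pairs overlapped. Of the 10 pairs, 5 had a positive difference and 5 a negative one. Some of these signs were of differences far smaller than their SE. SLC2A3 minus SLC2A1 and LDHB minus LDHA turned sign under median scaling, so the even split says little about direction. HK2 minus HK1 gave -0.04 ± 0.04, LDHB minus LDHA -0.01 ± 0.09, PFKFB2 minus PFKFB3 -0.07 ± 0.11 and PDK3 minus PDK1 0.10 ± 0.13.

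**Figure D3:**
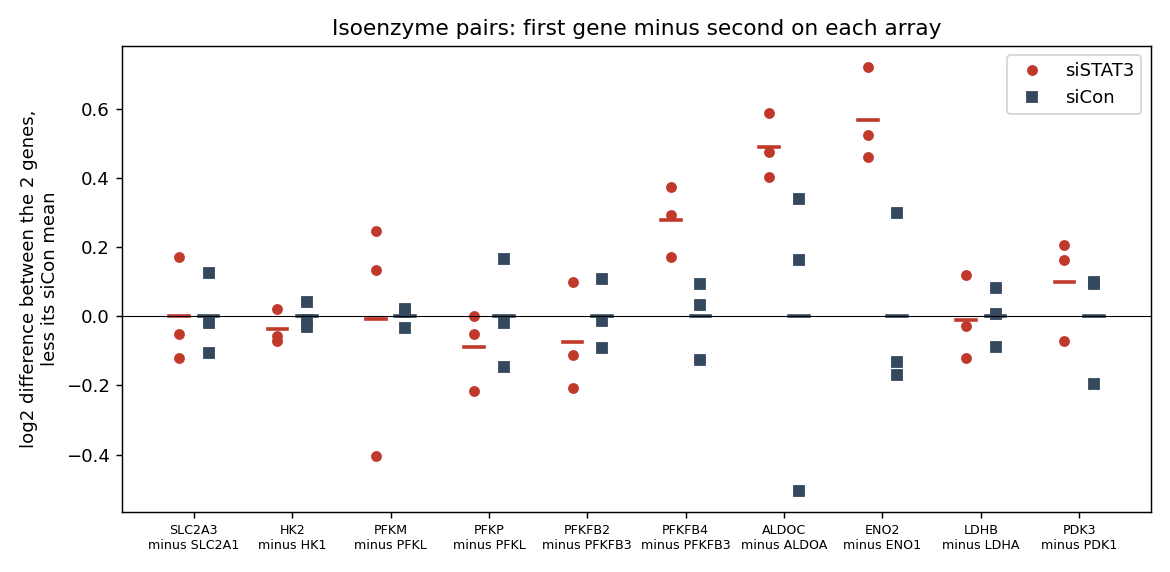
Per-array difference in log2 intensity between the first and second gene of each of the 10 measured pairs, less the siCon mean of that pair, so that 0 is the siCon mean; bars are group means. The siSTAT3 arrays lie clear of the siCon arrays for PFKFB4, ALDOC and ENO2 against their main forms, and among the siCon arrays of the aldolase pair 1 array, replicate 3, lies far below the others.

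The stretches before the start sites of ALDOC, PFKFB4, ENO2 and ENO1 are shown because the first 3 genes did not overlap between groups when set against their main form, and ENO1 is the main form of ENO2. They are RefSeq promoter windows on GRCh38.p14, at chr17:28576896-28577145 (- strand), chr3:48556804-48557053 (- strand), chr12:6914330-6914579 (+ strand) and chr1:8878687-8878936 (- strand). Each gives the 250 bases before the start, read 5′ to 3′ on the gene's strand. Capitals mark the core of the hypoxia response element, ACGTG or GCGTG, on either strand, and an overlap of ACGTG with its own reverse gives CACGTG, which is also the E-box bound by MYC.
ALDOC: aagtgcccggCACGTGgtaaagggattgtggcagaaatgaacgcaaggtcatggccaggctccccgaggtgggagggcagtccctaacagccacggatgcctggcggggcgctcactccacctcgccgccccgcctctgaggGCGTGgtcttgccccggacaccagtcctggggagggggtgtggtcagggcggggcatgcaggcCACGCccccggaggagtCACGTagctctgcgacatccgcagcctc
PFKFB4: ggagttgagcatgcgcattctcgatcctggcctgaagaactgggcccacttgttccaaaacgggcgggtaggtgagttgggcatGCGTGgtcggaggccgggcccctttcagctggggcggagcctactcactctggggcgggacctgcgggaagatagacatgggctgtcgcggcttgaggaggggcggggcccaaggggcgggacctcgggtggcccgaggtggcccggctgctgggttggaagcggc
ENO2: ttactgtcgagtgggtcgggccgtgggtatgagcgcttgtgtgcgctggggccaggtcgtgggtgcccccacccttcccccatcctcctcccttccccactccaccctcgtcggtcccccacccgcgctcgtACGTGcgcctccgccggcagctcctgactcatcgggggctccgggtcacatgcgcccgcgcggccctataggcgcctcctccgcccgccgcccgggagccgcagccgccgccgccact
ENO1: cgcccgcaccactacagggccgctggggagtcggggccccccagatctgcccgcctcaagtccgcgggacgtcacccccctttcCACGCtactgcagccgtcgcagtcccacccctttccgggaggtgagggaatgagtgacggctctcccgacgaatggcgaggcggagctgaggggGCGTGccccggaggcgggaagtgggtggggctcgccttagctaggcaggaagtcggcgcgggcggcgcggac
ALDOC held 5 matches to a core, of which a single CACGTG gave 2, ENO1 held 2, and ENO2 and PFKFB4 held 1 each. PFKFB3, the main form set against PFKFB4, held 1 and 2 in its windows. HK2 held 3 and 6 in its windows and PDHB held 6, though neither gene was called. Counting the 50 bases after the start as well, 26 of the genes with a window held a core and 5 held none. Core counts were not tested against the changes. ALDOA has 3 windows in the table, each with at least 1 ACGTG. Windows were found for 31 of the 34 genes, SLC16A3 among them though it has no probe. Some genes have several starts and count more than once, which gave 57 windows in all. Of these, 63.2% held ACGTG or GCGTG in the 300 bases that end 50 after the start, against 48.4% of 35116 windows of all genes. The STAT motif TTCNNNGAA was in 5.26% of the 57, against 7.66% of all, and the 3 genes with it were HK1, PDK1 and RPIA. A match is a description of letters and not a bound site.

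Probes of the same gene did not always move together. Of 17 further tested probes in 12 genes, 10 had the sign of the brightest probe and 7 the opposite. Among the 11 of them with a mean intensity over 200, 7 had the same sign and 4 the opposite. In a fit of all 29282 tested probes, in which 0.201% were called higher and 0.673% lower, none of the 49 probes passed by limma, and 6 had an unadjusted p under 0.05. ALDOC is represented by 1 probe, so its rise has no check by another probe here.

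**Figure D4:**
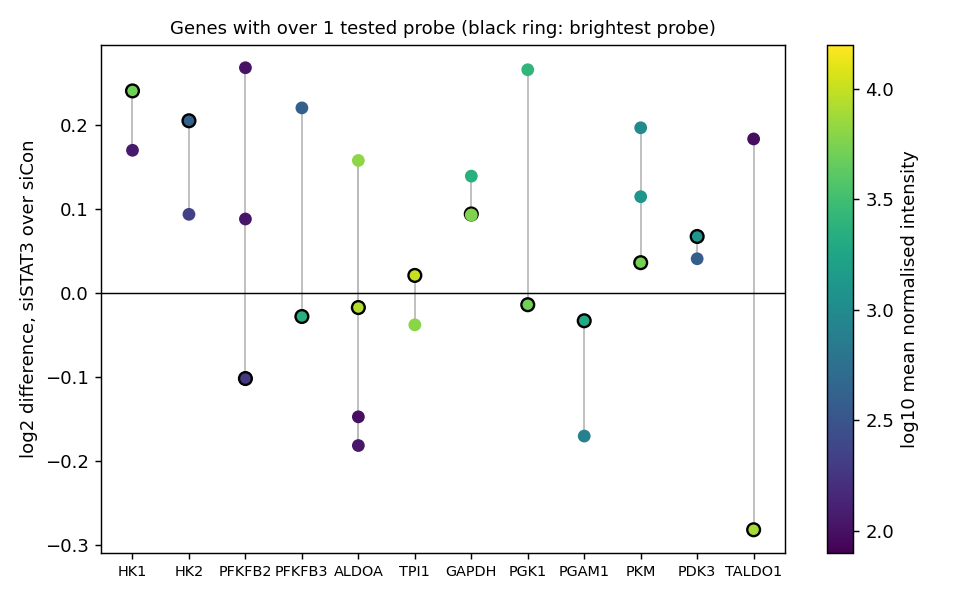
Log2 difference (siSTAT3 over siCon) of every tested probe in the 12 genes with over 1 such probe, coloured by log10 of mean normalised intensity, with the brightest probe ringed. Probes of PGK1, PFKFB2, PFKFB3, ALDOA, TPI1 and TALDO1 lie on both sides of 0, while those of HK1, HK2, GAPDH, PKM and PDK3 all lie above it.

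The rest of these pathways was described from a list of 65 further genes, fixed by role. Probes were named for 59, and 38 passed the filter, with tissue forms such as PGK2, FBP1, PCK1 and TKTL1 among those that did not. None was called by limma, with 2 higher and 2 lower at an unadjusted p under 0.05, and the median log2 change was -0.01. At that unadjusted p, 6.23% of all tested genes were higher and 5.87% lower. MPC1, a subunit of the mitochondrial pyruvate carrier, read 1060.2, 1213 and 1015 in siSTAT3, against 817, 872 and 694 in siCon. Its groups did not overlap, at a log2 change of 0.47 ± 0.12 (adjusted p = 0.0648), and 0.18 with its probes averaged. DLAT, the acetyltransferase core of pyruvate dehydrogenase, lay lower on every siSTAT3 array, at 761 ± 83.8 against 956 ± 57.3 in siCon (-0.33 ± 0.11, adjusted p = 0.199). GPD1L, a glycerol phosphate dehydrogenase, gave 0.31 (adjusted p = 0.210), and the dim monocarboxylate transporter SLC16A7 gave -0.29 (adjusted p = 0.322), or -0.18 without siCon array 3.

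**Figure D5:**
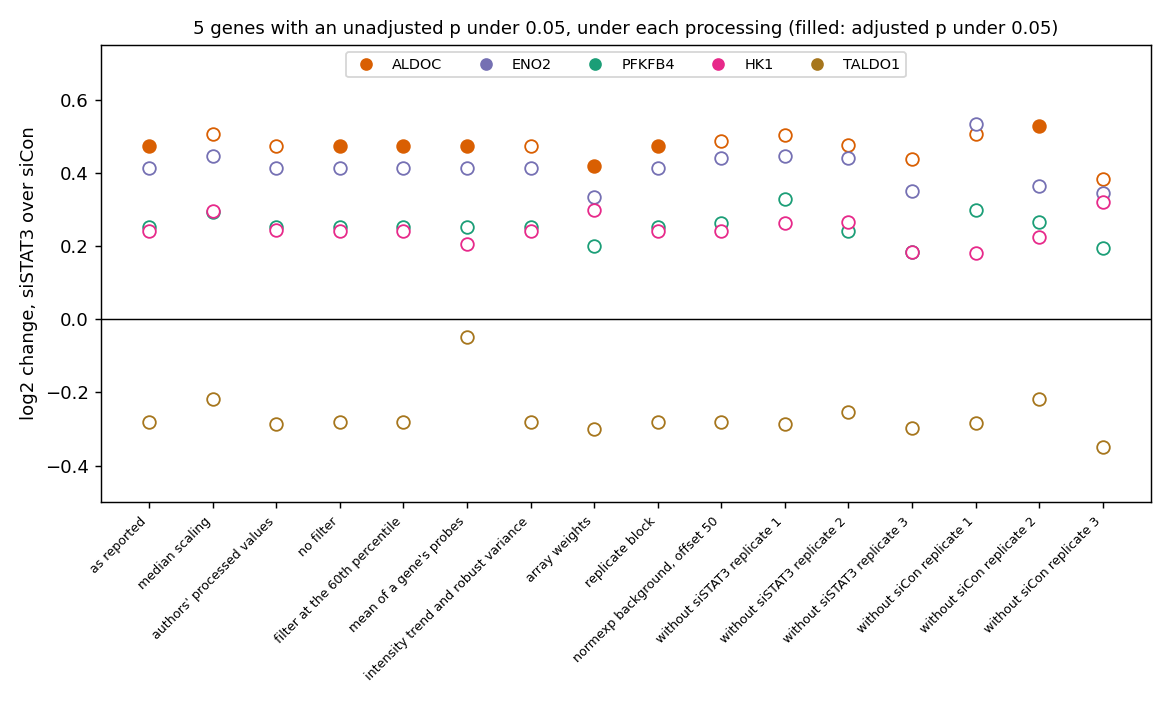
Log2 change (siSTAT3 over siCon) of the 5 genes with an unadjusted p under 0.05, as reported and under 15 other ways of processing; filled points have an adjusted p under 0.05. ALDOC lies between 0.38 and 0.53 under all 15 and keeps its call under 6, and TALDO1 comes near 0 when its probes are averaged. A lifted or stricter filter, the intensity trend and the replicate block can move only the p-values, not the points.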

How the data were processed

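Per the labels' protocols, total RNA was made into biotinylated cRNA for Illumina arrays of 1 colour. The authors deposited unnormalised probe intensity, used here, and a processed intensity whose 6 columns share 1 distribution, used as an alternative. The submitters' processing notes name BeadStudio, without a version, and do not describe background treatment. No background was subtracted, so folds of dim probes are compressed.

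Intensities were quantile-normalised and taken to log2 in limma 3.58.1 (R 4.3.3). Probes above the 40th percentile of mean intensity (89.9) were tested. A gene was represented by its brightest probe. Symbols came from the platform annotation (1 symbol for 28098 of 48803 probes), updated through RefSeq (GRCh38.p14), 28059 by Entrez ID and 14 by accession. Groups, taken from sample titles, were compared by two-sided limma tests (lmFit, then eBayes), adjusted after Benjamini-Hochberg across 14145 genes. Per-array values were given for STAT3, the called gene, the 8 smallest p-values and non-overlapping pairs, by rule, and also for SLC2A3, LDHA, PDHA1, MPC1 and HIF1A, chosen after their values were seen. On simulated data for this comparison with 14145 genes, 37 of 100 genes changed by 0.5 (log2) and 87 of 100 changed by 1 were recovered, with 2 false calls. The members, lists and tests were chosen with earlier results of these data known.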

Additional observations from a re-analysis of the deposited data

How the results depend on the processing

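The call of ALDOC was lost under median scaling, with the authors' processed values, with an intensity trend and robust variance, and with normexp background correction, so that 0 members were called there (limma, 3 to 7 members at an unadjusted p under 0.05). Leaving out each array gave 0 to 1, the call being kept without siCon replicate 2 alone. No member was called lower under any of the 15 alternatives. The median log2 change of the members was 0.10 under median scaling and 0.10 with a gene's probes averaged, and between 0.019 and 0.11 with each array left out. PFKFB4 minus PFKFB3 was 0.16 with probes averaged, and LDHB minus LDHA 0.11 under median scaling. Over all genes 207 were called, against 437 with array weights and between 61 and 408 with each array left out. Of the 207, 27.1% were higher, against 38.2% with array weights and between 6.56% (without replicate 3) and 12.1% with each siSTAT3 array left out. In the fit of all probes 1 member probe, against 0, was called with no filter and with array weights, and 0 to 1 with each array left out. Array weights called 1 further pathway gene higher (MPC1), and leaving out each array 0 to 1 lower (RBKS, without siCon replicate 3). A lifted or stricter filter, the intensity trend and the replicate block left member log2 changes as they were, so could turn no sign. Of 480 member values under alternatives, those included, 31 changed sign, in 13 of 32 genes, none of them called. The cause of these shifts was not tested.

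With the replicate block, 283 genes were called over all genes, 1 member probe (against 0), MPC1 as 1 higher gene of the wider pathway (against 0), and ALDOC with an adjusted p of 0.0479. The labels do not say that the numbers pair the samples. Deviations of same-numbered arrays correlated at 0.05, 0.18 and 0.07, each array best with its own number, a hint from the data only. Dim probes, PDK1 among them, limit what could be seen.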

Other observations

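Genes that respond to low oxygen, outside the pathways described, were set beside them from a list of 23, of which 22 were tested. Limma called 2 higher, AK4 and HILPDA, and none lower, and 7 were higher and 1 lower at an unadjusted p under 0.05. Over all tested genes limma called 0.396% higher and 1.07% lower, and 6.23% were higher and 5.87% lower at that unadjusted p. The log2 median of the 22 genes, each less its own mean over arrays, read 0.04, 0.003 and 0.17 on siSTAT3 arrays 1 to 3. On siCon arrays 1 to 3 it read -0.14, -0.09 and 0.07, so the groups overlapped. AK4, a mitochondrial adenylate kinase, read 3112 ± 303 in siSTAT3 and 1951 ± 174 in siCon on its brightest probe (log2 change 0.67, adjusted p = 0.00609), and 0.20 with its probes averaged (adjusted p = 0.377). The AK4 call was also lost without siSTAT3 array 3 (0.60, adjusted p = 0.0703), and held under the other 13 alternatives. HILPDA, a lipid droplet protein, read 295 ± 22.6 in siSTAT3 and 192 ± 44.2 in siCon (0.64, adjusted p = 0.0445), with adjusted p-values between 0.0129 and 0.236 over 15 alternatives, 7 of which lost the call. Both were known as called when the list was written. Without them 20 were tested and none called, with 5 higher and 1 lower at an unadjusted p under 0.05 and a median of 0.12. The next by p-value were DDIT4, an inhibitor of mTOR signalling (0.57, adjusted p = 0.0633, called under 4 of 15 alternatives), and ANKRD37 (0.33, adjusted p = 0.226).

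Of 6 tested regulators, EPAS1, an oxygen-regulated transcription factor, fell, at 737 ± 23.4 in siSTAT3 against 1083 ± 34.6 in siCon (-0.56, adjusted p = 0.00952), and each siSTAT3 array left out in turn ended that call (adjusted p between 0.0617 and 0.0831). HIF1AN, an inhibitor of hypoxia-inducible factors, gave 0.30 (adjusted p = 0.199), VHL, which targets them for breakdown, 0.27 (adjusted p = 0.385, or 0.14 without siCon array 3), and MYC -0.24 (adjusted p = 0.437). HIF1A, added after its values were seen, gave -0.12 (adjusted p = 0.901), at 3413, 4029 and 3568 in siSTAT3, against 3282, 2995 and 6389 in siCon. Without siCon array 3 it gave 0.23 (limma adjusted p = 0.358), and with its probes averaged -0.37 (limma adjusted p = 0.528).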
